A study of Homo sapiens with 16 samples.

Results

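The genes described here encode proteins that load and present peptides on MHC molecules: HLA-DPA1, HLA-DPB1, HLA-DRA, HLA-DMA, HLA-DMB and CD74 of the class II pathway, and B2M, TAP1, PSMB8 and PSMB9 of the class I pathway. They were followed in a pair of established human cell lines from basal-like breast tumours, HCC70 and MDA-MB-468. A gene was represented by its transcript cluster, the array's unit of measurement, where the platform annotation gave that cluster exactly 1 gene symbol; of several such clusters, the brightest by its 16-array mean was taken. Of the 10 genes, 8 had such a cluster, and together they had 21 of the 19460 clusters with 1 symbol. HLA-DRA and CD74 had none and their levels were not analysed here.

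The arrays formed 8 groups of 2. In HCC70, EZH2 was knocked down with an shRNA (shEZH2), EED was knocked down with an shRNA (shEED), and EZH2 was overexpressed from a cDNA (labelled fip EZH2). MDA-MB-468 cells received shEZH2 alone. The HCC70 controls were a pair of arrays with scrambled shRNA called set a, another such pair called set b, and a pair with the plKO Puro vector; MDA-MB-468 had 1 scrambled pair. Cells of every group, controls included, had been infected with virus and selected with puromycin. The labels give neither clones nor pools, nor the promoter of the cDNA vector, nor whether duplicates came from separate cultures, so the p-values measure the spread between arrays that may be technical duplicates. Set a was taken as the control of the EZH2 knockdown and set b as that of the EED knockdown, an assignment that the labels do not state outright. The reverse assignment was run as well and is given beside the results that it changes.

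Polycomb repressive complex 2 methylates histone H3 at genes that it keeps silent; EZH2 is its methyltransferase, and EED holds the complex together and reads the mark. MHC class II molecules carry peptides from the endosomal pathway to the cell surface for recognition by CD4 T cells; the HLA-DP chains form such a molecule, and HLA-DM, inside the cell, exchanges the invariant chain remnant for peptide. Class II genes are made mainly by professional antigen-presenting cells, and by epithelial and tumour cells on interferon-gamma exposure, through the coactivator CIITA, which docks on RFX, CREB and NF-Y proteins bound at the X and Y boxes of class II promoters. MHC class I molecules contain B2M, are present on most nucleated cells, and receive peptides that the proteasome (PSMB8 and PSMB9 are its interferon-inducible subunits) cuts and the TAP1-containing transporter carries into the endoplasmic reticulum.

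The promoters of the 4 class II genes measured are shown first, because these genes moved together. The sequences come from the RefSeq promoter table (GRCh38.p14), which held windows for 9 of the 10 genes, and run 5′ to 3′ on the gene's strand from base -150 to base -11 before the transcript start. Capitals mark matches to the X box letters, written here as CCNAG and ACNGA with 2 free bases between them (N is any base), and to CCAAT or its reverse complement. HLA-DPA1 has 2 windows in the table and TAP1 2; the window with more matches is shown.
HLA-DPA1, chr6:33073660-33073799, minus strand: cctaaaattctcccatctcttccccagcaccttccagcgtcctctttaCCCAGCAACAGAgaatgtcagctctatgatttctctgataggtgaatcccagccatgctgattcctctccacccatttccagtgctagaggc
HLA-DMA, chr6:32953108-32953247, minus strand: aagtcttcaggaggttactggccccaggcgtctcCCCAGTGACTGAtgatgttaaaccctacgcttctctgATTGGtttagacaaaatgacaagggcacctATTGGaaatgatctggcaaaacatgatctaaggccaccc
HLA-DMB, chr6:32941039-32941178, minus strand: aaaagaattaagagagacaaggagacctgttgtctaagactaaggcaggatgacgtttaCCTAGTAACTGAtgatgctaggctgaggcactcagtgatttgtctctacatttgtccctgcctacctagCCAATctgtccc
HLA-DPB1, chr6:33075840-33075979, plus strand: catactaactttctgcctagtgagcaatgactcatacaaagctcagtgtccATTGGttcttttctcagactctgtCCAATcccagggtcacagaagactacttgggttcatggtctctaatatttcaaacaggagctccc
The X box letters were present in HLA-DPA1 at position -102, in HLA-DMA at -116 and in HLA-DMB at -91. The window of HLA-DPB1 had no match to both elements: it holds cctag, which fits CCNAG, without ACNGA 2 bases after it. Over the 250 bases before the start, on both strands, these letters occurred in 0.988% of 35116 RefSeq promoter windows, and CCAAT in 32.0%. The letters of the X box were chosen after these promoters had been read, so the matches are a description of the sequences and not evidence of binding. For the same reason the missing match is not evidence that HLA-DPB1 lacks an X box.

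The class I promoters hold other motifs, shown for TAP1 and B2M with capitals on the interferon-stimulated response element that IRF proteins read, searched on either strand as GAAA and GAAA with 2 free bases between them.
TAP1, chr6:32853715-32853854, minus strand: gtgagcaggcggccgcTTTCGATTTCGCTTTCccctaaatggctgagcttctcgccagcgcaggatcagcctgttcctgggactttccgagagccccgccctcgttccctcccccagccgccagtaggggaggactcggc
B2M, chr15:44711367-44711506, plus strand: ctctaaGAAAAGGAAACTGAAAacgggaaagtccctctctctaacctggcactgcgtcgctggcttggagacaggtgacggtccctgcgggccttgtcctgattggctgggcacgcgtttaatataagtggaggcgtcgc
Each promoter held an overlapping pair of matches, and 3.02% of all windows held at least 1; the letters were again chosen with the sequences in view. TAP1 and PSMB9 are transcribed in opposite directions from starts 488 bases apart.

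The targeted genes were checked first. In HCC70 the EZH2 log2 signal was 10.01 and 9.998 on the set a arrays and 8.50 and 8.58 after EZH2 knockdown, and in MDA-MB-468 it was 10.07 and 10.14 against 8.39 and 8.48. EZH2 fell by 1.47 ± 0.07 (SE, adjusted p = 3.35e-07) and by 1.67 ± 0.07 (adjusted p = 2.56e-07) on the log2 scale, by limma with Benjamini-Hochberg adjustment over 16175 tested clusters. EED was 8.35 and 8.31 on the set b arrays and 7.54 and 7.49 after EED knockdown, and fell by 0.82 ± 0.11 (adjusted p = 0.000347); EZH2 fell by 0.24 ± 0.07 there (adjusted p = 0.0456). On the overexpression arrays EZH2 was 10.20 and 10.27 against 9.94 and 9.94 with vector, a change of 0.29 ± 0.07 that did not pass the test (adjusted p = 0.0961), so the values labelled overexpression come from arrays with a small measured difference in EZH2. Array medians ran from 5.37 to 5.53. All 8 epithelial markers were above the floor on every array, between 7.92 and 13.14, and PTPRC, the pan-leukocyte marker, lay between 3.21 and 3.44.

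In HCC70, the HLA-DP and HLA-DM genes were higher on the EZH2 knockdown arrays than on any of the 6 HCC70 control arrays, and so they were on the EED knockdown arrays; 3.84% of all tested clusters stood above those controls on all 4 knockdown arrays. The class I pathway genes differed by at most 0.41 from control in either comparison, whichever scrambled pair was used. With cDNA of EZH2 none of the 8 genes passed the test, and in MDA-MB-468 1 did, at a level below the floor. The text marks a log2 signal under 6 as below the floor: such a signal cannot be told from that of a silent gene, and RMA, which compresses dim signals, may understate changes that start there.

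**Figure D1:**
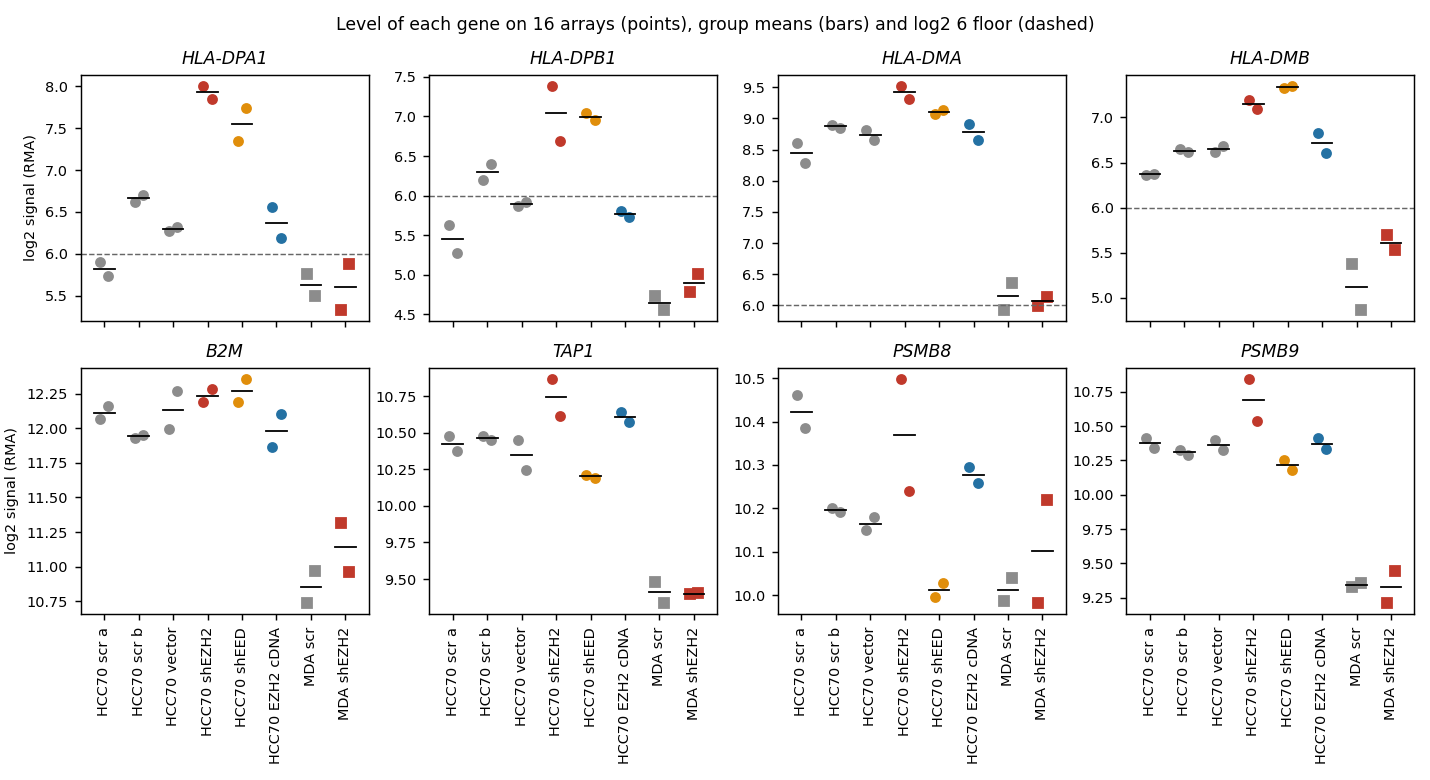
Log2 RMA signal (y axis, a separate scale per gene) of the 8 measured genes in the 8 groups (x axis; scr, scrambled shRNA; MDA, MDA-MB-468). Each point is 1 array, the bar is the mean of 2 arrays and the dashed line is the log2 6 floor; for the 4 class II genes (upper row) all 4 HCC70 knockdown points lie above all 6 HCC70 control points.

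HLA-DPA1, the alpha chain of HLA-DP, had log2 signals of 5.90 and 5.74 on the set a arrays, 6.62 and 6.71 on the set b arrays and 6.27 and 6.33 with empty vector. After EZH2 knockdown it reached 8.01 and 7.84, and after EED knockdown 7.35 and 7.74. With EZH2 cDNA it was 6.56 and 6.18. The knockdown arrays were the highest of the 16 and overlapped no control, whereas the cDNA arrays spanned the vector values. In MDA-MB-468 it was 5.76 and 5.50 on the control arrays and 5.34 and 5.88 after EZH2 knockdown, all below the floor. The means of the EZH2 and EED knockdown groups differed by 0.38, which is within 2 within-group SDs (0.213 each), and the EED group lay beyond 2 SDs above the next group, set b.

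HLA-DPB1, the beta chain of HLA-DP, was 5.63 and 5.27 on the set a arrays, 6.20 and 6.40 on the set b arrays and 5.87 and 5.92 with vector. It was 7.39 and 6.70 after EZH2 knockdown and 7.04 and 6.95 after EED knockdown. With EZH2 cDNA it was 5.81 and 5.72, just under the vector arrays. Again the 4 knockdown arrays stood above every control, although the EZH2 knockdown duplicates were further apart (SD 0.490) than those of any other group. In MDA-MB-468 it was 4.73 and 4.56 in the controls and 4.79 and 5.002 after knockdown. Of its 8 group means 5 were below the floor: set a, vector, cDNA and both MDA-MB-468 groups.

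HLA-DMA, the alpha chain of the peptide exchange factor HLA-DM, was well above the floor in HCC70, at 8.61 and 8.29 on the set a arrays, 8.90 and 8.84 on the set b arrays and 8.82 and 8.66 with vector. It was 9.52 and 9.31 after EZH2 knockdown, 9.06 and 9.13 after EED knockdown, and 8.91 and 8.66 with EZH2 cDNA. Both knockdowns lay above all controls, but the EED group stood only 0.22 above set b, within 2 SDs. In MDA-MB-468 the signals were 5.93 and 6.36 in the controls and 5.99 and 6.14 after knockdown, with both means close to the floor.

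HLA-DMB, the beta chain of HLA-DM, was 6.36 and 6.38 on the set a arrays, 6.65 and 6.61 on the set b arrays and 6.62 and 6.68 with vector. After EZH2 knockdown it was 7.20 and 7.10 and after EED knockdown 7.32 and 7.35, the highest values of this gene, while EZH2 cDNA gave 6.83 and 6.60. The MDA-MB-468 values were 5.38 and 4.87 in the controls and 5.69 and 5.53 after EZH2 knockdown, below the floor in both groups.

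By limma, EZH2 knockdown in HCC70 raised all 4 class II genes measured. HLA-DPA1 rose by 2.11 ± 0.19 (4.30-fold, adjusted p = 2.61e-05), HLA-DPB1 by 1.59 ± 0.19 (3.02-fold, adjusted p = 0.000266), HLA-DMA by 0.97 ± 0.15 (1.96-fold, adjusted p = 0.00188) and HLA-DMB by 0.78 ± 0.14 (1.71-fold, adjusted p = 0.00392). These are 4 of the 8 genes called higher, against 7.30% of all tested clusters; none was called lower, against 4.06%, and none was lower at an unadjusted p under 0.05 either. For HLA-DPA1 and HLA-DPB1 the control level lay below the floor. An RNA pool from a culture cannot separate more transcript per cell from more cells that carry it. With the variance taken from only the 4 arrays compared, HLA-DPB1 (adjusted p = 0.0608) and HLA-DMA (adjusted p = 0.0553) no longer passed.

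EED knockdown raised 3 of the 8 genes: HLA-DPA1 by 0.88 ± 0.19 (1.85-fold, adjusted p = 0.00792), HLA-DMB by 0.71 ± 0.14 (1.63-fold, adjusted p = 0.00497) and HLA-DPB1 by 0.70 ± 0.19 (1.62-fold, adjusted p = 0.0290). The background was 6.63% of clusters called higher and 7.53% called lower; none of the 8 genes was called lower, and 1, TAP1, was lower at an unadjusted p under 0.05. HLA-DMA changed by 0.22 ± 0.15 (adjusted p = 0.390). Leaving out 1 array ended the HLA-DPB1 call whichever of the 4 it was, and the HLA-DPA1 call without set b replicate 1 (0.84, adjusted p = 0.0664) or shEED replicate 2 (0.69, adjusted p = 0.0966), while the HLA-DMB call stayed. HLA-DPB1 also missed the threshold when no filter on dim clusters was used (adjusted p = 0.0579).

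**Figure D2:**
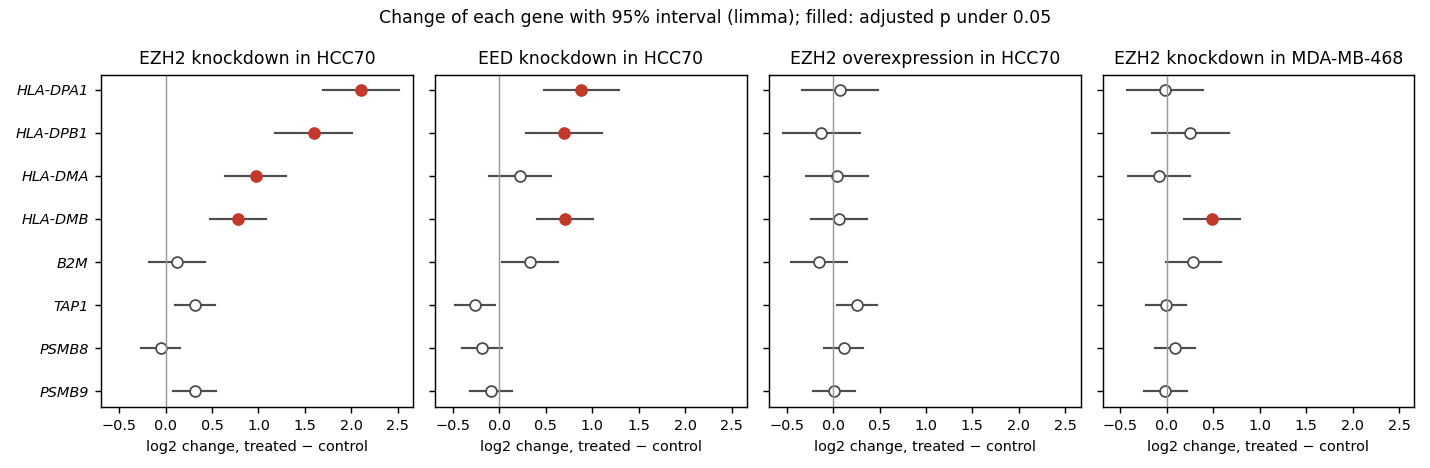
Treated minus control change (x axis, log2 units; 95% interval from limma) for each of the 8 genes (y axis) in the 4 treatment comparisons, filled where the adjusted p was under 0.05. The class II genes lie furthest right under EZH2 knockdown in HCC70, with HLA-DPA1 at 2.11, and all 8 intervals but that of TAP1 cover 0 under EZH2 overexpression.

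The size of these changes depended on which scrambled arrays served as control, and the direction of the class II genes did not. Set b was higher than set a for HLA-DPA1 (0.84 ± 0.19, adjusted p = 0.00774) and HLA-DPB1 (0.85 ± 0.19, adjusted p = 0.00774), without any treatment; 15.3% of all clusters were called higher and 7.41% lower between these control pairs. Both calls were lost without set a replicate 2 (HLA-DPA1 0.76 and HLA-DPB1 0.67) or set b replicate 2 (0.80 and 0.75). Against set b, EZH2 knockdown raised HLA-DPA1 by 1.26 ± 0.19 (adjusted p = 0.000502), HLA-DPB1 by 0.74 ± 0.19 (adjusted p = 0.0131), HLA-DMA by 0.55 ± 0.15 (adjusted p = 0.0199) and HLA-DMB by 0.52 ± 0.14 (adjusted p = 0.0163). Against set a, EED knockdown raised HLA-DPA1 by 1.73 ± 0.19, HLA-DPB1 by 1.55 ± 0.19, HLA-DMB by 0.97 ± 0.14 and HLA-DMA by 0.64 ± 0.15, each with an adjusted p of at most 0.00613.

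Against all 6 HCC70 control arrays, a comparison chosen after the data were seen, EZH2 knockdown gave 1.67 for HLA-DPA1, 1.16 for HLA-DPB1, 0.73 for HLA-DMA and 0.60 for HLA-DMB, and EED knockdown gave 1.29, 1.12, 0.41 and 0.79 for the same genes; all 8 values passed the test. These comparisons share their control arrays. The 4 class II genes were the ones of the 8 that stood above all 6 controls on all 4 knockdown arrays, as did 3.84% of all tested clusters. No gene stood below on all 4, where the background was 2.08%. With EZH2 knockdown alone 6 of 8 stood above all controls (background 12.1%) and 0 below (background 9.26%), and with EED knockdown alone 4 of 8 (background 20.3%).

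**Figure D3:**
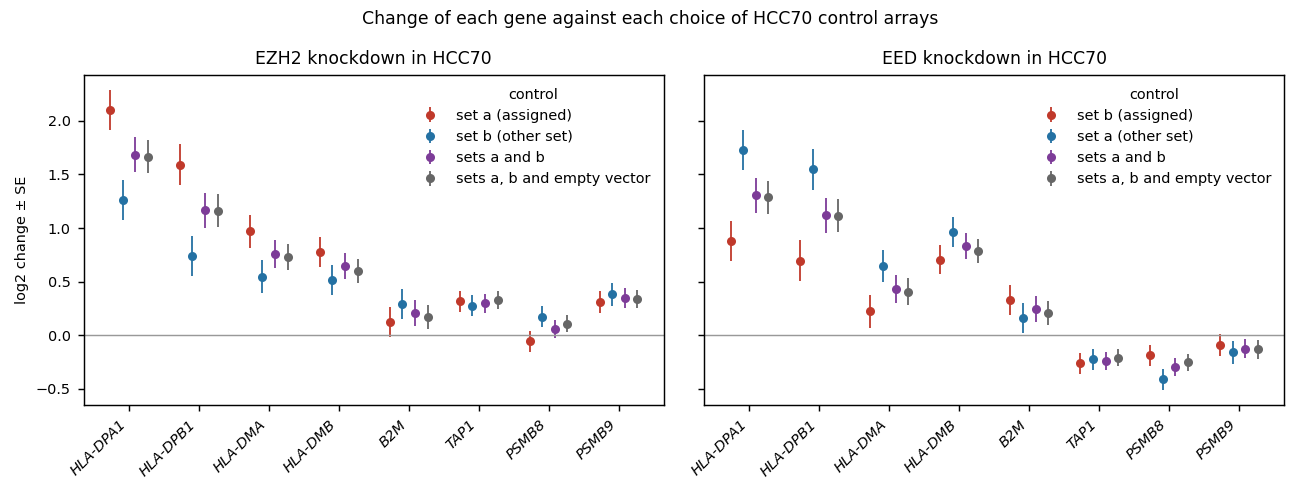
Log2 change (y axis, ± SE) of the 8 genes (x axis) after EZH2 knockdown (left) and EED knockdown (right) in HCC70 against 4 choices of control arrays, in colour. HLA-DPA1 ranges from 1.26 to 2.11 on the left and from 0.88 to 1.73 on the right, and PSMB8 changes sign on the left.

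In the EZH2 and EED knockdowns of HCC70, class II clusters not used to represent a gene changed in the same direction as those used. The remaining distinct cluster of HLA-DPA1 changed by 1.78 with EZH2 knockdown and 0.77 with EED knockdown, and the other clusters of HLA-DPB1 changed by 2.02 and 1.88 with EZH2 knockdown and by 1.08 and 0.83 with EED knockdown. The other cluster of HLA-DMA changed by 0.92 and 0.22, and that of HLA-DMB by 0.79 and 0.70. Clusters of 1 gene can share probes, and TAP1, PSMB8 and PSMB9 each had 3 clusters with identical values, so these are not independent measurements. MHC genes are polymorphic and have close relatives, and cross-hybridisation between them was not tested.

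Of the class I pathway genes, B2M, the invariant light chain, had log2 signals of 12.07 and 12.16 on the set a arrays and 12.19 and 12.29 after EZH2 knockdown, and 11.93 and 11.95 on the set b arrays and 12.19 and 12.36 after EED knockdown. Vector gave 11.999 and 12.27 and EZH2 cDNA 11.86 and 12.10, so treated and control arrays overlapped over HCC70 as a whole. Its changes were 0.12 ± 0.14 with EZH2 knockdown (adjusted p = 0.617) and 0.33 ± 0.14 with EED knockdown (adjusted p = 0.143). Neither change passed the test.

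TAP1, a subunit of the peptide transporter, was 10.47 and 10.37 on the set a arrays and 10.87 and 10.61 after EZH2 knockdown. It was 10.48 and 10.45 on the set b arrays and 10.21 and 10.19 after EED knockdown, with 10.45 and 10.25 for vector and 10.64 and 10.57 for EZH2 cDNA. The EZH2 knockdown arrays thus lay above all 6 controls and the EED knockdown arrays below them. Against the assigned controls neither change passed, at 0.32 ± 0.10 (adjusted p = 0.0607) and -0.26 ± 0.10 (adjusted p = 0.106). Against all 6 controls the EZH2 knockdown value of 0.33 passed (adjusted p = 0.0124) and the EED knockdown value of -0.21 did not (adjusted p = 0.0768).

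PSMB9, an inducible proteasome subunit whose start lies beside that of TAP1, was 10.42 and 10.34 on the set a arrays and 10.84 and 10.54 after EZH2 knockdown, and 10.33 and 10.29 on the set b arrays and 10.26 and 10.18 after EED knockdown. Vector gave 10.40 and 10.33 and EZH2 cDNA 10.41 and 10.33. As with TAP1, EZH2 knockdown lay above all controls and EED knockdown below. The EZH2 knockdown change was 0.31 ± 0.10 (adjusted p = 0.0787) against set a, and it passed against set b (0.38 ± 0.10, adjusted p = 0.0192) and against all 6 controls (0.34, adjusted p = 0.0141). The EED knockdown change was -0.09 ± 0.10 (adjusted p = 0.654).

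PSMB8, the other inducible subunit on this list, was 10.46 and 10.38 on the set a arrays, 10.20 and 10.19 on the set b arrays and 10.15 and 10.18 with vector. It was 10.50 and 10.24 after EZH2 knockdown, overlapping the controls, and 9.996 and 10.03 after EED knockdown, below them all. EZH2 cDNA gave 10.30 and 10.26. EZH2 knockdown changed it by -0.05 ± 0.10 against set a (adjusted p = 0.775) and by 0.17 ± 0.10 against set b (adjusted p = 0.210). EED knockdown changed it by -0.18 ± 0.10 against set b (adjusted p = 0.256), whereas it fell by 0.41 ± 0.10 against set a (adjusted p = 0.00641). TAP1, PSMB8 and PSMB9 were the 3 of 8 genes below all 6 controls after EED knockdown, against 11.2% of all clusters.

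With EZH2 cDNA in HCC70 none of the 8 genes was called by limma in either direction, where the background was 0.909% higher and 0.0680% lower, and 1, TAP1, was higher at an unadjusted p under 0.05 (0.26 ± 0.10, adjusted p = 0.360). The 95% interval of the change ran from -0.33 to 0.48 for HLA-DPA1, from -0.54 to 0.28 for HLA-DPB1, from -0.29 to 0.37 for HLA-DMA and from -0.23 to 0.37 for HLA-DMB. A fall of HLA-DPB1 would start from a vector level below the floor.

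In MDA-MB-468, EZH2 knockdown left 7 of the 8 genes without a call. HLA-DMB was called higher (0.49 ± 0.14, adjusted p = 0.0498), against 2.73% of all clusters called higher and 5.57% called lower. Both of its groups were below the floor, and the call ended without scrambled replicate 2 (0.23), without shEZH2 replicate 1 (0.40), without shEZH2 replicate 2 (0.57) and under 6 other settings. HLA-DPA1 changed by -0.02 ± 0.19 with both groups below the floor, HLA-DPB1 by 0.25 ± 0.19 likewise, and HLA-DMA by -0.08 ± 0.15 (adjusted p = 0.773). The class I genes were measured well above the floor there. B2M was 10.74 and 10.97 in the controls and 11.32 and 10.96 after knockdown, TAP1 was 9.48 and 9.34 against 9.39 and 9.40, PSMB8 was 9.99 and 10.04 against 9.98 and 10.22, and PSMB9 was 9.33 and 9.36 against 9.21 and 9.44. In each of these 4 genes the knockdown and control arrays overlapped.

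The difference between the lines was tested as a contrast of the same model. The EZH2 knockdown effect was larger in HCC70 than in MDA-MB-468 for HLA-DPA1 by 2.13 ± 0.26 (adjusted p = 0.000597), for HLA-DPB1 by 1.34 ± 0.27 (adjusted p = 0.00869) and for HLA-DMA by 1.05 ± 0.21 (adjusted p = 0.00984); 8.97% of all clusters were called in this direction and 4.27% in the other. The difference for HLA-DMB (0.29 ± 0.19, 95% interval -0.13 to 0.71, adjusted p = 0.346) and those of the 4 class I genes did not pass. With set b as the HCC70 control the HLA-DPA1 difference still passed (1.29, adjusted p = 0.00753), while those of HLA-DPB1 (0.49, adjusted p = 0.244) and HLA-DMA (0.63, adjusted p = 0.0664) did not.

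The lines already differed without treatment. Between the scrambled controls (set a for HCC70), 7 of the 8 genes were higher in HCC70, where 30.3% of all clusters were called higher and 36.7% lower. HLA-DMA was higher by 2.30 ± 0.15 (4.94-fold, adjusted p = 9.16e-08), B2M by 1.26 ± 0.14, HLA-DMB by 1.25 ± 0.14, PSMB9 by 1.04 ± 0.10, TAP1 by 1.02 ± 0.10, HLA-DPB1 by 0.81 ± 0.19 and PSMB8 by 0.41 ± 0.10, the last 6 with adjusted p-values of at most 0.00276. HLA-DPA1 differed by 0.19 ± 0.19 (adjusted p = 0.384), with both groups below the floor. HLA-DPB1 was also below the floor in both groups (means 5.45 and 4.64). In MDA-MB-468, HLA-DMB was below the floor (5.12) and HLA-DMA close to it (6.15). With set b, HLA-DPA1 passed (1.03, adjusted p = 0.000434) and PSMB8 did not (0.18, adjusted p = 0.122). Line and group cannot be told apart from any difference in culture between the lines.

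Across the 12 HCC70 arrays the class II genes followed each other closely. Pearson's r of their 6 pairs ran from 0.837 to 0.950. The 6 pairs of class I genes ran from -0.336 to 0.858, and the 16 pairs across the classes from -0.447 to 0.536. Over all 16 arrays, which span both lines, the class II pairs ran from 0.755 to 0.947. The class I pairs then ran from 0.427 to 0.980 and the pairs across the classes from 0.181 to 0.964. The arrays share groups of 2 and the knockdowns span most of the range, so these values describe the arrays. Of the 11712 tested clusters with 1 symbol, the genes most like HLA-DPA1 over the 12 HCC70 arrays were CAMK2N1 (r = 0.963), DENND5B (r = 0.959), C1R (r = 0.951), which encodes a complement protease, and EEF1A2 (r = 0.948), a translation elongation factor. Over all 16 arrays their r was 0.767, -0.040, 0.881 and 0.747. For PSMB9 they were JADE2 (r = 0.979), LASP1 (r = 0.954), HECTD3 (r = 0.950) and COPE (r = 0.949), with -0.528, 0.812, 0.246 and -0.611 over all 16 arrays.

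Among the other genes of the class II pathway, CIITA lay below the floor on all 16 arrays and was not tested. It was 5.47 and 5.51 on the set a arrays, 5.57 and 5.94 after EZH2 knockdown, 5.36 and 5.39 on the set b arrays and 5.48 and 5.39 after EED knockdown. Vector gave 5.41 and 5.46. The EZH2 knockdown arrays thus lay above all 6 HCC70 controls, as did 12.1% of all tested clusters, and the EED knockdown arrays did not. Neither knockdown group stood at or above the floor. Of the 6 tested regulators among 8 listed, which include the RFX, NF-Y and CREB proteins, none was called by limma in EZH2 knockdown (1 was higher at an unadjusted p under 0.05). In EED knockdown CREB1 fell by 0.26 ± 0.08 (adjusted p = 0.0378), and none was called higher. At an unadjusted p under 0.05, 1 regulator was higher and 1 lower there. NFYB was 7.90 and 8.07 on the set b arrays and 8.48 and 8.41 after EED knockdown. The other untested regulator, RFXAP, was 5.25 and 5.23 on the set b arrays and 5.99 and 5.99 after EED knockdown. It was 5.59 and 5.39 on the set a arrays and 5.60 and 5.46 after EZH2 knockdown, and all of these lay below the floor. The remaining class II chains with a 1-symbol cluster, 5 in number, were not tested; HLA-DOA reached the floor on 1 shEZH2 array, at 6.04.

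Of 11 genes of the endosomal compartment, EZH2 knockdown raised the cathepsins CTSL (0.41 ± 0.08, adjusted p = 0.00796) and CTSD (0.38 ± 0.10, adjusted p = 0.0290), lysosomal proteases, and EED knockdown lowered 3. CTSH fell by 0.88 ± 0.09 (adjusted p = 9.25e-05), LGMN, the asparaginyl endopeptidase, by 0.48 ± 0.10 (adjusted p = 0.00935) and CTSS, which trims the invariant chain, by 0.40 ± 0.08 (adjusted p = 0.00617). The list's median change was 0.15 with EZH2 knockdown and -0.09 with EED knockdown, against 0.01 and 0.02 over all tested clusters. The 3 proteases that fell lay below all 6 controls, and CTSL lay above them, whereas CTSD overlapped them and stood level with set b (0.003).

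In the class I loading list of 7 genes, EZH2 knockdown raised ERAP1, a peptide-trimming aminopeptidase (0.31 ± 0.08, adjusted p = 0.0330), and EED knockdown lowered TAP2, the partner of TAP1, by 0.29 ± 0.08 (adjusted p = 0.0415). TAP2 was higher with EZH2 cDNA than with vector (0.42 ± 0.08, adjusted p = 0.0414). Its cDNA arrays, at 10.27 and 10.15, lay above the vector pair (9.72 and 9.86). They lay within the range of the HCC70 scrambled arrays (10.54 and 10.48 in set a, 10.13 and 10.21 in set b). PSME1, a subunit of the proteasome activator PA28, rose with EZH2 knockdown (0.39 ± 0.09, adjusted p = 0.0159), 1 of 4 further inducible proteasome genes. Against set b the direction turned for both genes that rose, at -0.20 for ERAP1 and -0.09 for PSME1, and their arrays overlapped the controls. None of the 7 constitutive proteasome genes was called by limma in either knockdown in HCC70, and 0 passed an unadjusted p of 0.05.

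Of the 9 tested genes of the interferon-gamma pathway, EZH2 knockdown raised 1. IRF1, a transcription factor induced by interferon, rose by 0.71 ± 0.14 (adjusted p = 0.00810) against set a, but set b exceeded set a by 0.96 ± 0.14 for the same gene, and against set b the knockdown value was -0.24. NLRC5, the class I counterpart of CIITA, changed by 0.32 ± 0.12 (adjusted p = 0.106) with EZH2 knockdown and by -0.18 ± 0.12 (adjusted p = 0.376) with EED knockdown. EED knockdown lowered the receptor chain IFNGR2 by 0.58 ± 0.11 (adjusted p = 0.00345) and the transcription factor IRF2 by 0.62 ± 0.14 (adjusted p = 0.0100).

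Of 5 tested genes for costimulation and adhesion, EZH2 knockdown raised 3: ICAM1, an adhesion molecule, by 1.24 ± 0.17 (adjusted p = 0.000621), and the PD-1 ligands PDCD1LG2 by 0.93 ± 0.14 (adjusted p = 0.00181) and CD274 by 0.68 ± 0.13 (adjusted p = 0.00648). Against set b these were -0.37, 0.47 and 0.18, so ICAM1 changed direction. The set a level of PDCD1LG2 was below the floor (mean 5.66). EZH2 cDNA raised CD274 (0.82 ± 0.13, adjusted p = 0.0127) and PDCD1LG2 (0.73 ± 0.14, adjusted p = 0.0394). EED knockdown lowered CD83 by 0.38 ± 0.10 (adjusted p = 0.0305). Both CD83 means were below the floor, at 5.98 for set b and 5.60 after EED knockdown. In MDA-MB-468, EZH2 knockdown lowered MARCHF8, a ubiquitin ligase of MHC class II, by 0.65 ± 0.17 (adjusted p = 0.0348) and raised MICB, a stress-induced ligand (0.39 ± 0.10, adjusted p = 0.0355).

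Over these lists, 51 genes were tested in all; 8 rose and 0 fell with EZH2 knockdown, and 0 rose and 8 fell with EED knockdown (18 higher and 2 lower, and 3 higher and 16 lower, at an unadjusted p under 0.05). Of all tested clusters, 7.30% were called higher and 4.06% lower with EZH2 knockdown, and 6.63% higher and 7.53% lower with EED knockdown. Against set b, 4 of the 8 that rose (ERAP1, PSME1, IRF1 and ICAM1) had a negative change and CTSD one of 0.003, while the 8 that fell with EED knockdown were also lower than set a; these are differences of group means, which were not tested. Of the 8 that rose, 2 (CTSL and PDCD1LG2) stood above all 6 controls, as did 12.1% of all clusters, and 6 overlapped them. PDCD1LG2 started from a set a level below the floor. Of the 8 that fell, 7 stood below all 6 controls, as did 11.2% of all clusters, and TAP2 overlapped them. The 7 include CD83, whose set b and EED knockdown means were both below the floor.

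**Figure D4:**
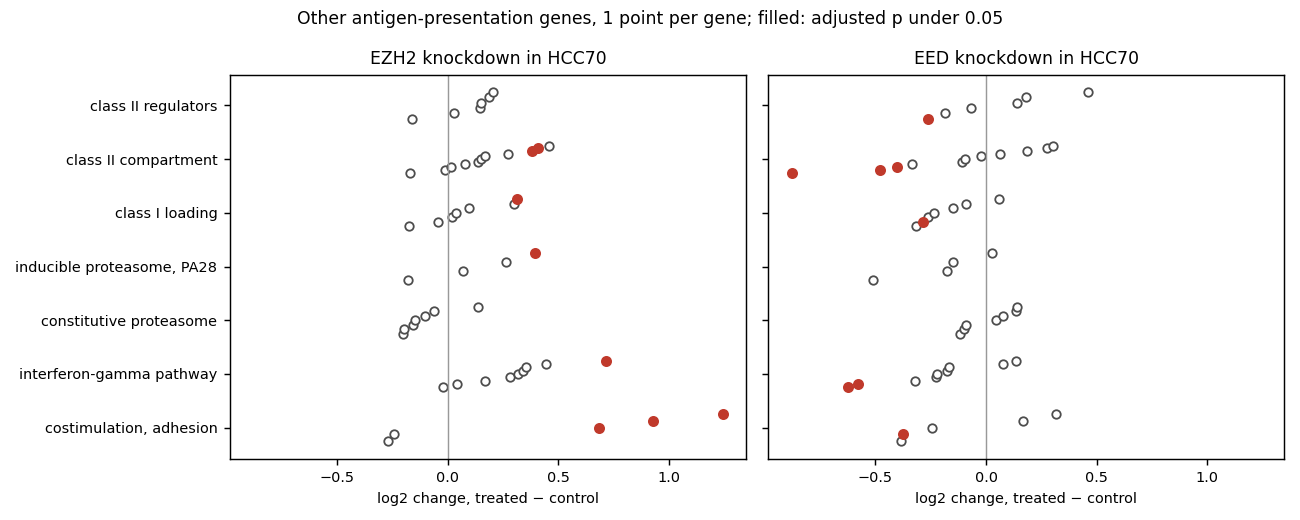
Log2 change, treated minus assigned control (x axis), of each tested gene in 7 lists of the antigen presentation pathway (y axis) after EZH2 knockdown (left) and EED knockdown (right) in HCC70, filled where the adjusted p was under 0.05. Called genes lie to the right with EZH2 knockdown, up to ICAM1 at 1.24, and to the left with EED knockdown, down to CTSH at -0.88; against set b ICAM1, IRF1, ERAP1 and PSME1 turn negative on the left.

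Markers of other cells were read beside these values, since class II genes are high in blood-derived cells. All 4 B cell, 4 T cell and 3 endothelial markers with a 1-symbol cluster lay below the floor on all 16 arrays, at most at 5.36, 4.72 and 5.04. Of 9 myeloid markers 6 did so too, and their list mean per array lay between 5.25 and 5.28 on the set a arrays, at 5.27 on both EZH2 knockdown arrays, between 5.19 and 5.20 on the set b arrays and between 4.98 and 5.09 after EED knockdown. CD14 was above the floor on every array and fell by 0.58 ± 0.09 with EZH2 knockdown and by 1.18 ± 0.09 with EED knockdown. In HCC70, CSF1R rose by 0.35 ± 0.09 with EZH2 knockdown, at 5.32 and 5.35, below the floor. CD68 was above the floor on every array, at 9.51 and 9.55 on the set a arrays and 9.86 and 9.77 after EZH2 knockdown. On the set b arrays it was 8.77 and 8.85, and after EED knockdown 8.64 and 8.57. In MDA-MB-468, CSF1R went from 5.66 and 5.57 to 6.15 and 6.39 after EZH2 knockdown. There CD14 went from 10.15 and 10.06 to 9.70 and 9.70, and CD68 from 7.57 and 7.66 to 7.52 and 7.37. Of the 8 epithelial markers, 1, EPCAM, fell with EZH2 knockdown in HCC70 (by 0.51 ± 0.13). With EED knockdown 4 fell, KRT8 the most, by 0.53 ± 0.09. The part of these markers in the class II values was not tested.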

How the data were processed

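Total RNA was measured on Affymetrix Human Gene 1.0 ST arrays. The deposited values are log2 signals, made by the authors with RMA in Affymetrix Expression Console per the submitters' processing notes; software versions were absent from these notes. RMA normalizes between arrays and compresses dim signals. Arrays give no read depth, and their number, 2 per group, limits the precision.

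Clusters at or above log2 6 on at least 2 of 16 arrays were tested, 16175 of 33297. A model of 8 group means was fitted with limma 3.58.1 in R 4.3.3 (lmFit, eBayes; 8 residual and 3.69 prior degrees of freedom), two-sided, with p-values adjusted by Benjamini-Hochberg within each comparison and called under 0.05. The code was tested on simulated data. Groups came from the sample titles. Named genes were the 10 members, the called genes of the pathway lists (at most 4 per list and comparison), fixed controls such as CIITA and EZH2, and the 4 most correlated genes of HLA-DPA1 and PSMB9. The members and lists were chosen with earlier results of these data known. Alternatives changed the scaling, floor, variance model, cluster choice, control set, pairing and arrays used. Scan dates were not used here, so no batch was tested.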

Additional observations from a re-analysis of the deposited data

Results flagged for a closer look

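By limma's test of the difference itself, with set a as the HCC70 control, 3 genes responded to EZH2 knockdown to unequal extents in the cell lines. HLA-DPA1 rose on both HCC70 arrays and its change was 2.13 log2 units larger than in MDA-MB-468. For HLA-DPB1 the difference was 1.34 and for HLA-DMA 1.05. With set b as control, HLA-DPA1 still passed (1.29, adjusted p = 0.00753), and HLA-DPB1 (0.49, adjusted p = 0.244) and HLA-DMA (0.63, adjusted p = 0.0664) did not. In MDA-MB-468 HLA-DPA1 and HLA-DPB1 lay below the floor before and after knockdown, and HLA-DMA lay at it. Each group had 2 arrays, so no array could be marked as an outlier.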

How the results depend on the processing

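Over 840 recomputed values of single genes, none reversed a called direction, 785 kept their side of the threshold, 28 passed it newly and 27 lost it. With the variance from only the arrays compared, EZH2 knockdown in HCC70 called 2 genes higher, EED knockdown 5 higher and 1 lower, set b against set a 4 higher and 1 lower, the difference between lines 1, and MDA-MB-468 0. EED knockdown also called 1 gene lower (PSMB8) against set a, both sets or all 6 HCC70 controls, and the difference between lines called 1 with set b. The MDA-MB-468 count was 0 after a further quantile normalization, median centring, no filter, a trended robust variance or the mean of a gene's clusters. The causes were not tested. Leaving out 1 array gave 4 to 6 genes higher with EZH2 knockdown in HCC70, 1 to 2 with EED knockdown, 0 with EZH2 cDNA, 0 to 1 in MDA-MB-468, 0 to 2 for set b against set a and 3 to 5 for the difference between lines, the last 5 without shEZH2 replicate 2, where TAP1 and PSMB9 passed. The lone array was assumed to vary like the other groups. Same-numbered arrays did not deviate together (r between -0.04 and 0.08 over 5 comparisons). This shows no large deviation shared by number, and the labels do not say whether same-numbered samples were paired. With the replicate block, EZH2 knockdown called 5 genes higher, TAP1 being added (0.32, adjusted p = 0.0294), and EED knockdown 3. Scaling moved the median change of all clusters by less than 0.1 in each comparison. Signals under log2 6 limit HLA-DPA1 and HLA-DPB1 most.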

Other observations

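The 2 scrambled pairs of HCC70 differed in the wider antigen presentation pathway as well. Of 51 tested genes in the pathway lists, 14 were higher and 3 lower on set b than on set a, where 15.3% and 7.41% of all clusters were. ICAM1 was higher by 1.62 ± 0.17 (adjusted p = 5.67e-05 by limma), IRF1 by 0.96 ± 0.14, CD274 by 0.51 ± 0.13 and PDCD1LG2 by 0.46 ± 0.14. The set a mean of PDCD1LG2 was below the floor, at 5.66. EED itself was lower on set b by 0.38 ± 0.11 (log2 change -0.38, adjusted p = 0.0219), while EZH2 changed by 0.07 ± 0.07. Both pairs carry a scrambled shRNA.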
